A study of Mus musculus with 24 samples.

Results

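Livers that lacked the transcription factor FoxO1 in hepatocytes (LFKO) were set directly against livers that lacked the nuclear receptor PPARα there (LPKO), in mice fed a high-fat diet (HFD). These 6 libraries, 3 per genotype, were taken by their labels from 24 libraries of liver RNA, and every gene was examined. Both knockouts came from floxed alleles cut by an Albumin-Cre transgene, which is active in hepatocytes, so other liver cells kept both genes. The remaining high-fat groups were livers that lacked both factors (LFPKO) and livers of FoxO1 lox/lox; PPARα lox/lox mice without a stated Cre (WT). The same genotypes were also kept on a regular diet (RD), with 3 libraries in each of the 8 groups. All mice had their diet for 3 weeks and were fasted for 4 h. Age and sex are not given in the labels used here. Nothing in the labels says that the 3 libraries of a group came from separate mice. The p-values therefore reflect only how far libraries spread within groups, pooled over all 8 groups, which may be technical.

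FoxO1 enters the nucleus when insulin is low and switches on genes of glucose output and genes that insulin restrains, while insulin drives its phosphorylation and keeps it in the cytoplasm. PPARα is bound by fatty acids and, as a pair with RXR, switches on genes for fatty acid uptake, activation, oxidation in mitochondria, peroxisomes and microsomes, and ketone body synthesis. Both factors are active in the fasted liver, and a direct comparison shows which transcripts part when one or the other is missing while diet and fasting are the same.

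Levels are gene-level TPM, a length-corrected share of a library's transcripts on a fixed total. Read numbers cannot be recovered from TPM, so the depth is unknown. Differences are log2 fold changes ± SE on the log2(TPM + 1) scale, LFKO minus LPKO unless stated, which understates changes of weakly expressed genes. A gene was called when its limma adjusted p was under 0.05 among 10551 tested genes with a mean of at least 1 TPM. Between 10037 and 10692 genes per library reached 1 TPM in LFKO and between 10089 and 10320 in LPKO livers.

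The LFKO libraries were less alike than the LPKO libraries. In a principal component analysis of the 6 libraries, LFKO replicate 1 lay at -2.75 on the first component and at -31.9 on the second, whereas LFKO replicates 2 and 3 lay at 24.5 and 34.1 on the first. The LPKO libraries lay at -12.8, -16.4 and -26.7 on the first component. Major urinary protein (Mup) transcripts took 17.7%, 10.9% and 6.5% of the TPM in LFKO livers, against 13.4%, 12.5% and 26.1% in LPKO livers. A larger Mup share leaves less of the fixed TPM total to every other gene, so counts after rescaling are given beside the main ones.

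The targeted genes came first. Foxo1 (chr3:52268336-52353221 in GRCm38, plus strand, GENCODE M21) had 0.362, 0.341 and 0.401 TPM in LFKO livers, against 9.37, 9.94 and 5.53 TPM in LPKO livers. All LFKO libraries lay far below all LPKO libraries, as the LFKO label calls for, with a log2 fold change of -2.73 ± 0.14 (adjusted p = 1.54e-10). WT livers had 4.74, 5.52 and 4.06 TPM, so Foxo1 was also higher in LPKO than in WT livers by 0.66 ± 0.14 (adjusted p = 0.0107). Ppara (chr15:85734983-85802819, plus strand) had 42.1, 68.8 and 62.6 TPM in LFKO livers and 84.3, 87.3 and 70.9 TPM in LPKO livers, with 47.6, 44.2 and 37.1 TPM in WT livers. The transcript was thus lower in LFKO than in LPKO livers (-0.5 ± 0.14, adjusted p = 0.0465), but the call was not kept without the filter, with the 6 libraries alone, without the variance trend or without LFKO replicate 1, LFKO replicate 3, LPKO replicate 1 or LPKO replicate 2 (adjusted p up to 0.412). A gene-level TPM counts the whole gene and the labels do not name the deleted exons, so Ppara cannot check the LPKO label.

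On the high-fat diet LFKO livers had 350 genes called higher and 134 called lower than LPKO livers. By fold change the highest called genes, among those with non-overlapping groups and a mean of at least 5 TPM in the higher group, were Cyp4a14, Cyp2b9, Vnn1, Cyp4a10, Fitm1 and Raet1d, and the lowest were Igfbp1, Serpine2, Foxo1, Serpinb1a, Mme and Mup21. The calls made up 4.59% of the tested genes, 3.32% higher and 1.27% lower. The median log2 fold change of all tested genes was 0.10, and rescaling the libraries by median-of-ratios factors moved it by 0.10 and gave 359 higher and 335 lower genes. The count rested strongly on single LFKO libraries: 1244 genes were called without LFKO replicate 1, 273 without replicate 2 and 283 without replicate 3. With these 6 libraries alone in the fit 202 genes were called. The main fit pooled the spread of a gene over all 8 groups. The median SD of a gene on the log2(TPM + 1) scale was 0.22 in HFD LFKO and 0.18 in HFD LPKO livers. It was 0.12 in RD LFKO and 0.11 in RD LPKO livers. The pooled spread may thus be smaller than that of the compared groups, and its part in the calls was not tested.

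Promoter sequences are shown for a gene from each side, because FoxO1 and PPARα are known for binding short DNA words near such genes. Most called genes lack the words marked here. Fabp1 is the only called higher gene with its match, so neither promoter stands for its side. They come from RefSeq (GRCm38.p6) and run from 250 bases before to 50 bases after the start of the gene, 5′ to 3′ on the strand of the gene. Fabp1, a fatty acid binding protein, lies on the plus strand with the window chr6:71199629-71199928. Its capitals mark the single match, on the opposite strand and 67 to 55 bases before the start, to a direct repeat of AGGTCA with 1 base between both copies and at most 1 mismatch, the kind of element that PPAR and RXR bind. The secreted binding protein Igfbp1 lies on the plus strand with the window chr11:7197537-7197836, and its capitals mark CAAAACA, the core of the insulin response element bound by FoxO factors, 108 to 102 bases before the start.
Fabp1: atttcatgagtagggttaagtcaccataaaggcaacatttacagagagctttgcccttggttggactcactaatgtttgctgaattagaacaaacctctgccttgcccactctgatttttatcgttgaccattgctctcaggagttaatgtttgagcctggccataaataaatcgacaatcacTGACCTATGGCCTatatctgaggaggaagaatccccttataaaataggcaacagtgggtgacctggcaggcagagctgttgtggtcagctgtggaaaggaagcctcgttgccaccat
Igfbp1: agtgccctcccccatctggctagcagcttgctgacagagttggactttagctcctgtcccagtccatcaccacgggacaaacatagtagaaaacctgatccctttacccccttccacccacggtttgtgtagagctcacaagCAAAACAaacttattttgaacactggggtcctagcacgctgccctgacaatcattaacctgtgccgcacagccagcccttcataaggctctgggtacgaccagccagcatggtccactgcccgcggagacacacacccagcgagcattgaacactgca

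The shares of promoters that hold these words are given as a description. Both strands were searched, and a single AGGTCA also lies within the repeat. The repeat with at most 1 mismatch was in 0.554% of 32851 promoters and in 0.654% of 8255 tested genes with a promoter in the table. It was in 1 of 269 called higher genes (0.372%), which is Fabp1, and in 0 of 96 called lower genes. With at most 2 mismatches those shares were 3.86%, 4.02%, 4.83% and 2.08%. CAAAACA was in 6.28% of all promoters, 5.65% of tested, 5.2% of higher and 4.17% of lower genes. A related core bound by FoxO factors, GTAAACA, was in 3.65% of all promoters, 3.43% of tested, 5.2% of higher and 0 of 96 lower genes. A single AGGTCA was in 16.3%, 15.7%, 14.1% and 15.6%. These are letters in a short window and describe no binding.

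Cyp4a14, a microsomal fatty acid hydroxylase, had the largest log2 fold change of the called genes. Cyp4a14 (chr4:115486200-115496142, minus strand), which hydroxylates the far end of fatty acids, had 126, 524 and 749.9 TPM in LFKO livers, against 10.1, 8.76 and 2.08 TPM in LPKO livers. Every LFKO library lay above every LPKO library, although LFKO replicate 1 was the lowest of its group by a wide margin. The log2 fold change was 5.73 ± 0.7 (adjusted p = 1.77e-05). LFPKO livers had 0.942, 1.16 and 4.14 TPM and WT livers 17.5, 3.35 and 27.5 TPM, so the LFKO group stood alone at the high end. Cyp4a10 had 82.2, 283 and 487 TPM in LFKO livers and 20.1, 27.3 and 4.08 TPM in LPKO livers (3.96 ± 0.55, adjusted p = 7.04e-05), with the same order of the LFKO libraries. Cyp4a32 (2.68 ± 0.24) and Cyp4a31 (2.18 ± 0.19) were also higher, as was the fatty aldehyde dehydrogenase Aldh3a2 (2.03 ± 0.31). Of 11 tested genes of microsomal hydroxylation 5 were called higher and 1 lower, with a median of 0.49. Cyp4f14 was the one called lower (112 ± 24.7 TPM in LFKO livers and 167 ± 15.7 TPM in LPKO livers, SD, n = 3 each), and the call was not kept without the filter, with the 6 libraries alone, without the variance trend or without LFKO replicate 1, LFKO replicate 2, LPKO replicate 1, LPKO replicate 2 or LPKO replicate 3 (adjusted p up to 0.239). Cyp4a genes share long stretches of sequence, so how reads were divided among them is uncertain.

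**Figure D1:**
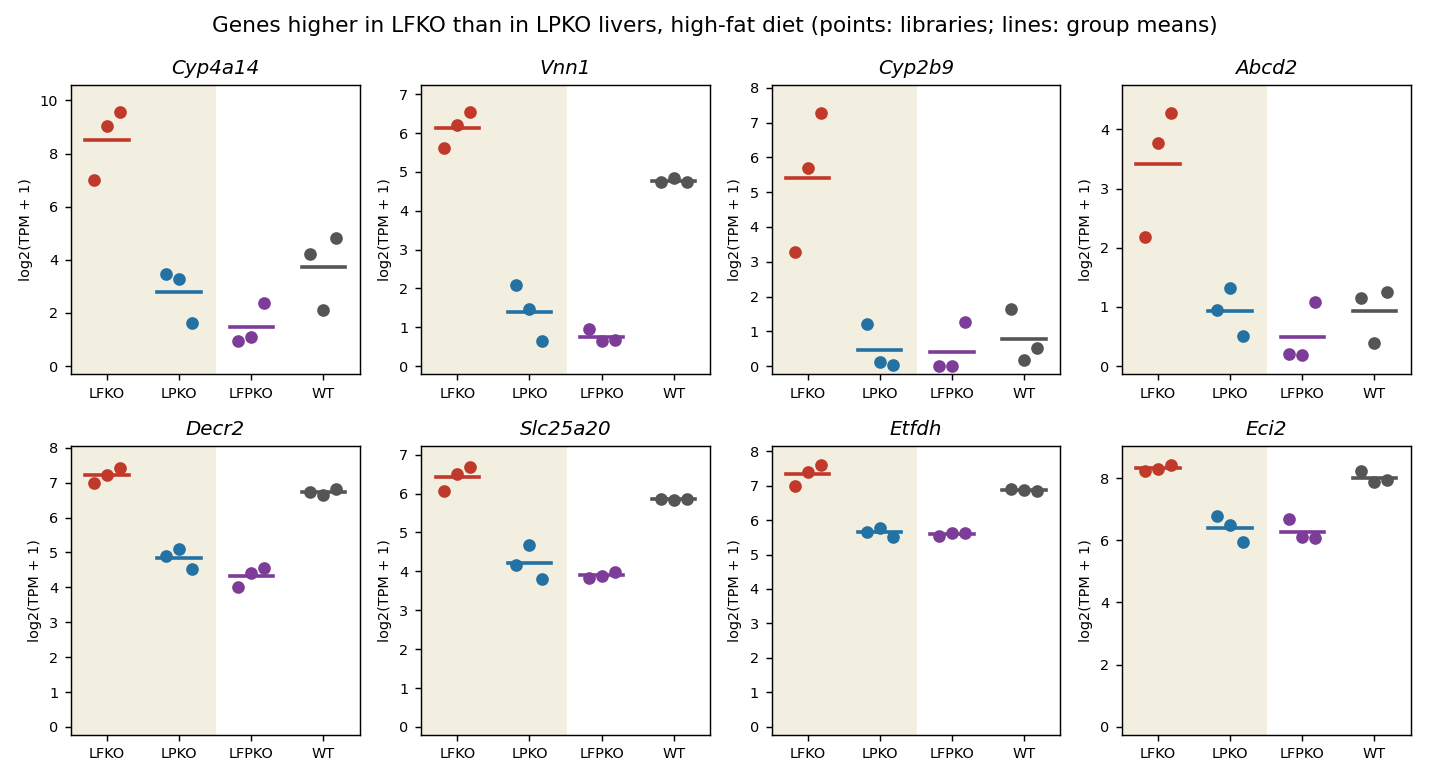
Expression as log2(TPM + 1) of 8 genes higher in LFKO than in LPKO livers on the high-fat diet, with a point for each of 3 libraries and a line at each group mean, for LFKO, LPKO (both shaded), LFPKO and WT livers. All 3 LFKO points lie above all 3 LPKO points in each panel, and LFKO replicate 1, the left point, is the lowest LFKO point.

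Mitochondrial fatty acid oxidation was higher in LFKO livers for most of its genes. Of 20 tested members 17 were called higher and 0 lower, with a median log2 fold change of 1.0 against 0.10 for all tested genes. The carnitine acylcarnitine carrier Slc25a20, which moves acylcarnitines across the inner membrane, had 66.4, 89.04 and 101 TPM in LFKO livers, against 16.9, 24.7 and 13.00 TPM in LPKO livers. The groups were far apart, with every LFKO value above and every LPKO value below those of WT livers (57.3, 55.96 and 56.8 TPM). Its log2 fold change was 2.2 ± 0.17 (adjusted p = 5.65e-08). Etfdh passes electrons from acyl-CoA dehydrogenases to ubiquinone, and had 125, 167 and 192 TPM in LFKO livers, against 49.7, 53.4 and 44.2 TPM in LPKO livers. Its LPKO libraries were tightly grouped below all LFKO libraries (1.68 ± 0.11, adjusted p = 2.91e-09).

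Other steps of the same pathway followed. Acadvl, the very long chain acyl-CoA dehydrogenase, averaged 191 ± 32.2 TPM in LFKO livers and 68.8 ± 12.2 TPM in LPKO livers (SD, n = 3 each). Cpt2, which releases acyl-CoA from carnitine in the matrix, averaged 98.6 ± 20.7 TPM in LFKO livers and 34.2 ± 7.14 TPM in LPKO livers, and Eci2, an enoyl-CoA isomerase, had 299, 312 and 338 TPM in LFKO livers and 110.0, 88.1 and 61.03 TPM in LPKO livers. Their log2 fold changes were 1.46 ± 0.13, 1.5 ± 0.16 and 1.9 ± 0.17. The acyl-CoA synthetase Acsl1 was higher by 0.97 ± 0.17 (adjusted p = 9.60e-04). Cpt1a, the entry enzyme at the outer membrane, was not called, with 139, 152 and 176 TPM in LFKO livers and 161, 144 and 122 TPM in LPKO livers (0.13 ± 0.12, adjusted p = 0.643). It was picked for description after its values were seen. Over the alternatives between 12 and 18 of the 20 members were called higher and 0 lower. The summed TPM of the list was 3679, 4474 and 5176 in LFKO livers, against 2692, 2510 and 1940 in LPKO livers, without overlap.

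Peroxisomal oxidation moved in the same direction. Of 21 tested members 16 were called higher and 0 lower, with a median of 1.03, and between 8 and 17 were called over the alternatives. Decr2, a reductase for unsaturated fatty acids, had 125, 149.6 and 172 TPM in LFKO livers, against 29.1, 33.6 and 21.8 TPM in LPKO livers. The lowest LFKO library was several times higher than the highest LPKO library, and the fold change was 2.37 ± 0.15 (adjusted p = 2.14e-09). Hsd17b4, the bifunctional enzyme, averaged 214 ± 38.7 TPM in LFKO livers and 85.7 ± 19.00 TPM in LPKO livers (SD, n = 3 each), a difference of 1.32 ± 0.13. Crot, which turns medium-chain acyl groups into carnitine esters, was higher by 1.21 ± 0.16, and Crat, which does so for acetyl groups, by 2.2 ± 0.37. Abcd2 carries very long chain fatty acids into peroxisomes and had 3.55, 12.6 and 18.4 TPM in LFKO livers, against 0.941, 1.5 and 0.431 TPM in LPKO livers. The LFKO values spread widely but did not overlap those of LPKO livers (2.48 ± 0.38, adjusted p = 2.10e-04).

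Some ketone body and thioesterase genes were higher in LFKO livers. In the 7 tested ketone body genes 3 were called higher, among them the thiolase Acat1 (0.69 ± 0.15), and the list median was 0.31. Without LFKO replicate 3 or LPKO replicate 3, 1 ketone body gene was called, and the median was 0.18 without LFKO replicate 3 and 0.64 without LFKO replicate 1. The summed TPM of the list was 1400, 1798 and 2168 in LFKO livers, against 869, 855 and 640 in LPKO livers, without overlap. The Acat1 call was not kept with the 6 libraries alone or without LFKO replicate 3 or LPKO replicate 3 (adjusted p up to 0.193). Of 11 tested acyl-CoA thioesterases 2 were called higher, Acot8 (0.93 ± 0.17) and Acot2 (0.99 ± 0.26), with a list median of 0.40. Without LFKO replicate 1, 7 thioesterases were called higher. The Acot2 call was not kept without the filter, with the 6 libraries alone or without LFKO replicate 2, LFKO replicate 3, LPKO replicate 1 or LPKO replicate 3 (adjusted p up to 0.294), and Acot8 was not called with the 6 libraries alone (adjusted p = 0.0676).

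Among 21 other genes known as PPARα targets 11 were called higher and 1 lower, with a median of 0.91. Vnn1 (chr10:23894688-23905343, plus strand), a pantetheinase that frees a precursor of coenzyme A, had 48.1, 73.3 and 91.7 TPM in LFKO livers, against 3.23, 1.75 and 0.57 TPM in LPKO livers. No LPKO library came near the LFKO libraries, and the fold change was 4.72 ± 0.33 (adjusted p = 7.64e-09). Fitm1, which helps form lipid droplets, had 23.1, 30.99 and 37.8 TPM in LFKO livers, against 1.71, 5.21 and 0.263 TPM in LPKO livers. LPKO replicate 3 was the lowest of all 6 libraries (3.49 ± 0.4, adjusted p = 1.04e-05). Fabp1, whose promoter is shown above, averaged 13722 ± 1179 TPM in LFKO livers and 6479 ± 1872 TPM in LPKO livers (SD, n = 3 each) and was higher by 1.13 ± 0.19 (adjusted p = 6.75e-04). Rab30, a small GTPase of the Golgi, was higher by 2.05 ± 0.21, Retsat, a retinol saturase, by 1.89 ± 0.25, and Fitm2 by 1.34 ± 0.15. Mfsd2a, a carrier of lysophospholipids, was higher by 2.83 ± 0.58 (adjusted p = 0.0042). The member called lower was Cyp8b1, the sterol hydroxylase that sets the share of cholic acid among bile acids, described below. Plin2, a coat protein of lipid droplets, was not called at 0.91 ± 0.27 (adjusted p = 0.0552) but was called without LFKO replicate 1, and Fgf21, a fasting hormone, was called at a low level of 1.13, 0.896 and 1.65 TPM in LFKO livers and 0.0762, 0.455 and 0 TPM in LPKO livers, a call that was not kept without the filter, with the 6 libraries alone or without LFKO replicate 2, LFKO replicate 3, LPKO replicate 1 or LPKO replicate 3 (adjusted p up to 0.182).

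Further lipid genes lay on the same side. Of 24 tested genes of lipid droplets and fatty acid uptake 5 were called higher, Fitm1, Fitm2, Fabp1, Plin5 and Cd36, with a median of 0.16. Plin5, which tethers lipid droplets to mitochondria, had 20.3, 14.9 and 17.2 TPM in LFKO livers, against 4.08, 8.74 and 1.23 TPM in LPKO livers. LPKO replicate 2 was closest to the LFKO libraries but did not reach them (1.93 ± 0.36, adjusted p = 0.00178). Plin5 was not called with the 6 libraries alone (adjusted p = 0.0606). The fatty acid translocase Cd36 had 11.6, 36.6 and 61.2 TPM in LFKO livers, against 10.4, 15.9 and 4.51 TPM in LPKO livers, and the groups overlapped (1.6 ± 0.41, adjusted p = 0.0263). Its call was not kept without the filter, with the 6 libraries alone or without LFKO replicate 2, LFKO replicate 3 or LPKO replicate 3 (adjusted p up to 0.301). Gpat3, which starts triglyceride synthesis, was higher by 2.2 ± 0.26. The cholesterol efflux pair Abcg5 and Abcg8, which pump sterols into bile, was higher by 0.85 ± 0.21 and 0.73 ± 0.16. Abcg5 was not called without LFKO replicate 2, LFKO replicate 3 or LPKO replicate 3 (adjusted p up to 0.106), and Abcg8 was not called without LFKO replicate 3 (adjusted p = 0.0596).

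**Figure D2:**
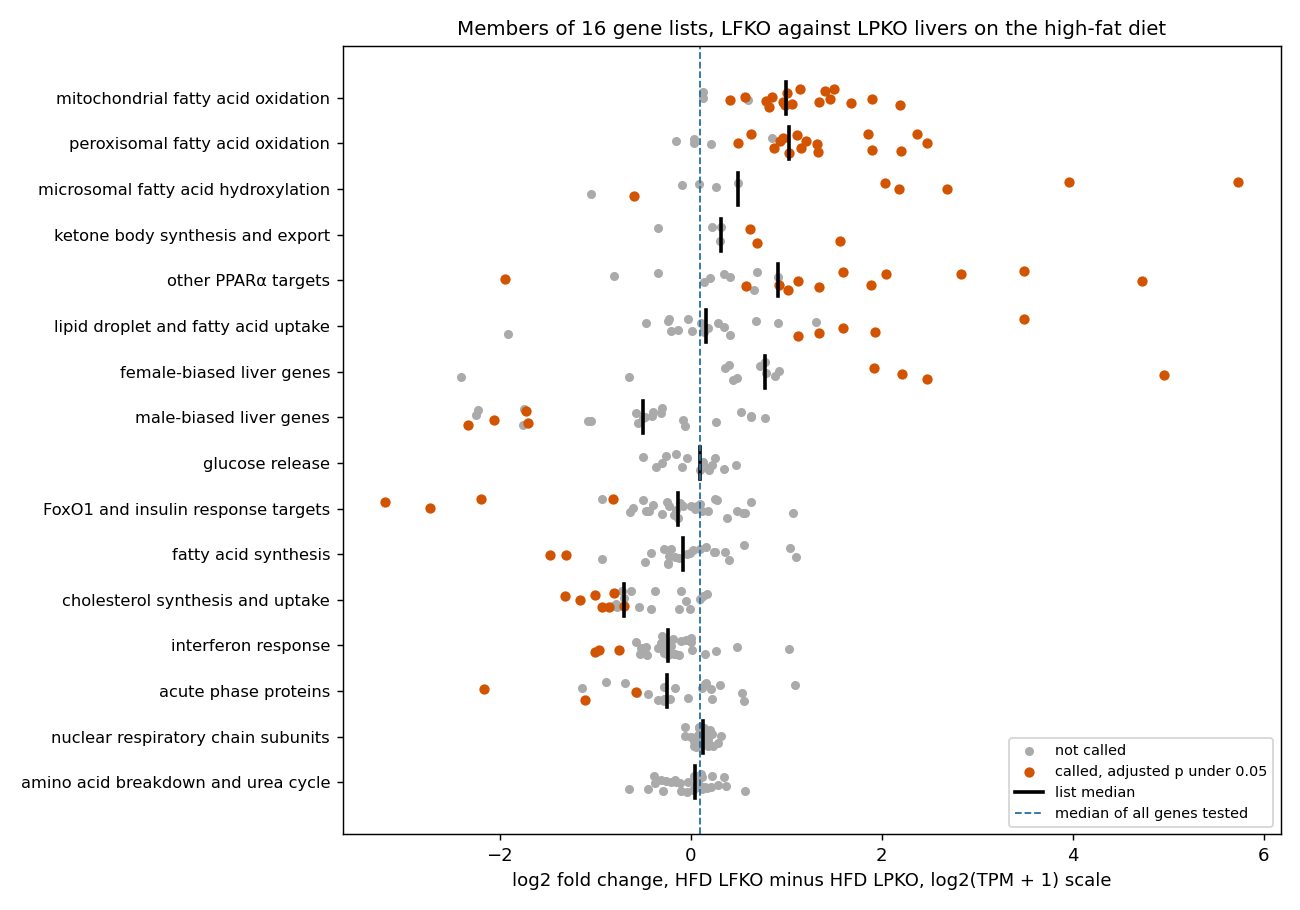
Log2 fold change, LFKO minus LPKO on the high-fat diet, of the tested members of 16 of the 39 gene lists. Orange points are called genes, grey points the others, black bars list medians and the dashed line the median of all tested genes (0.10). The oxidation lists lie to the right, with medians of 1.0 and 1.03, and the cholesterol list to the left, with a median of -0.70.

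Few of the genes that FoxO1 or insulin is known to control differed, though their share called lower was above that of all tested genes. Of 33 tested members 0 were called higher and 4 lower, with a median of -0.13, and 1 of the 4 was Foxo1 itself. Of all tested genes 3.32% were called higher and 1.27% lower. Igfbp1 (chr11:7197782-7202546, plus strand), a binding protein for insulin-like growth factors that insulin represses, had 44.7, 6.32 and 6.78 TPM in LFKO livers, against 208, 185 and 50.6 TPM in LPKO livers. LFKO replicate 1 lay only slightly below LPKO replicate 3, and the other libraries were far apart (-3.2 ± 0.62, adjusted p = 0.00253). It was not called with the 6 libraries alone in the fit (adjusted p = 0.0606). Eif4ebp3, a member of the family of proteins that bind and inhibit the cap-binding factor of translation, had 85.7, 57.1 and 57.6 TPM in LFKO livers, against 421, 241 and 278 TPM in LPKO livers. Its groups were well apart (-2.2 ± 0.32, adjusted p = 1.24e-04). Sesn3, a stress protein and FoxO target, averaged 2.86 ± 0.835 TPM in LFKO livers and 5.66 ± 0.612 TPM in LPKO livers (SD, n = 3 each), a difference of -0.81 ± 0.16 that was not called with the 6 libraries alone (adjusted p = 0.0983).

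No gene of glucose release was called between the knockouts. Of 15 tested genes 0 were called either way by limma, with a median of 0.09, and at most 1 was called in either direction under an alternative. That is near the share over all tested genes, of which 4.59% were called. Pck1, which commits oxaloacetate to glucose synthesis, had 1153, 713 and 571 TPM in LFKO livers and 1474, 1316 and 677 TPM in LPKO livers. The ranges overlapped (-0.49 ± 0.3, adjusted p = 0.447). G6pc, the last enzyme of glucose output, had 84.5, 51.2 and 37.5 TPM in LFKO livers and 116, 78.1 and 33.7 TPM in LPKO livers (-0.3 ± 0.35, adjusted p = 0.724). WT livers had 225, 154 and 159 TPM, and G6pc was called lower than WT in LFKO livers (-1.67 ± 0.35) and in LPKO livers (-1.37 ± 0.35). Irs2, an insulin receptor substrate, was not called (-0.44 ± 0.28). G6pc and Irs2 were chosen after their values were seen. In glycolysis 1 of 18 tested genes was called, Ldha, at 0.68 ± 0.15, and it was not called with the 6 libraries alone or without LFKO replicate 3 or LPKO replicate 3 (adjusted p up to 0.132).

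Several protease inhibitors and membrane or signalling proteins were among the genes lower in LFKO livers. Serpine2 (chr1:79794197-79861180, minus strand), an inhibitor of thrombin and plasminogen activators, had 1.52, 1.72 and 1.03 TPM in LFKO livers, against 16.1, 15.9 and 23.99 TPM in LPKO livers. All LFKO libraries were near the bottom of the scale (-3.01 ± 0.25, adjusted p = 1.31e-07). Serpinb1a, an inhibitor of neutrophil proteases, had 0.0304, 1.02 and 0.836 TPM in LFKO livers, against 8.71, 6.84 and 10.6 TPM in LPKO livers. The membrane peptidase Mme had 0.44, 0.17 and 0.678 TPM in LFKO livers, against 6.48, 6.11 and 5.92 TPM in LPKO livers. WT livers had 0.52, 0.209 and 1.23 TPM of Serpinb1a and 0.196, 0.173 and 0.119 TPM of Mme, so LPKO livers stood apart for both genes, with fold changes of -2.62 ± 0.35 and -2.34 ± 0.28. Serpina12, an adipokine also made in liver, had a log2 fold change of -1.96, the B cell adaptor Blnk one of -1.92, the kinase Camk1d one of -1.65 and Acmsd, an enzyme of tryptophan breakdown, one of -1.6.

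**Figure D3:**
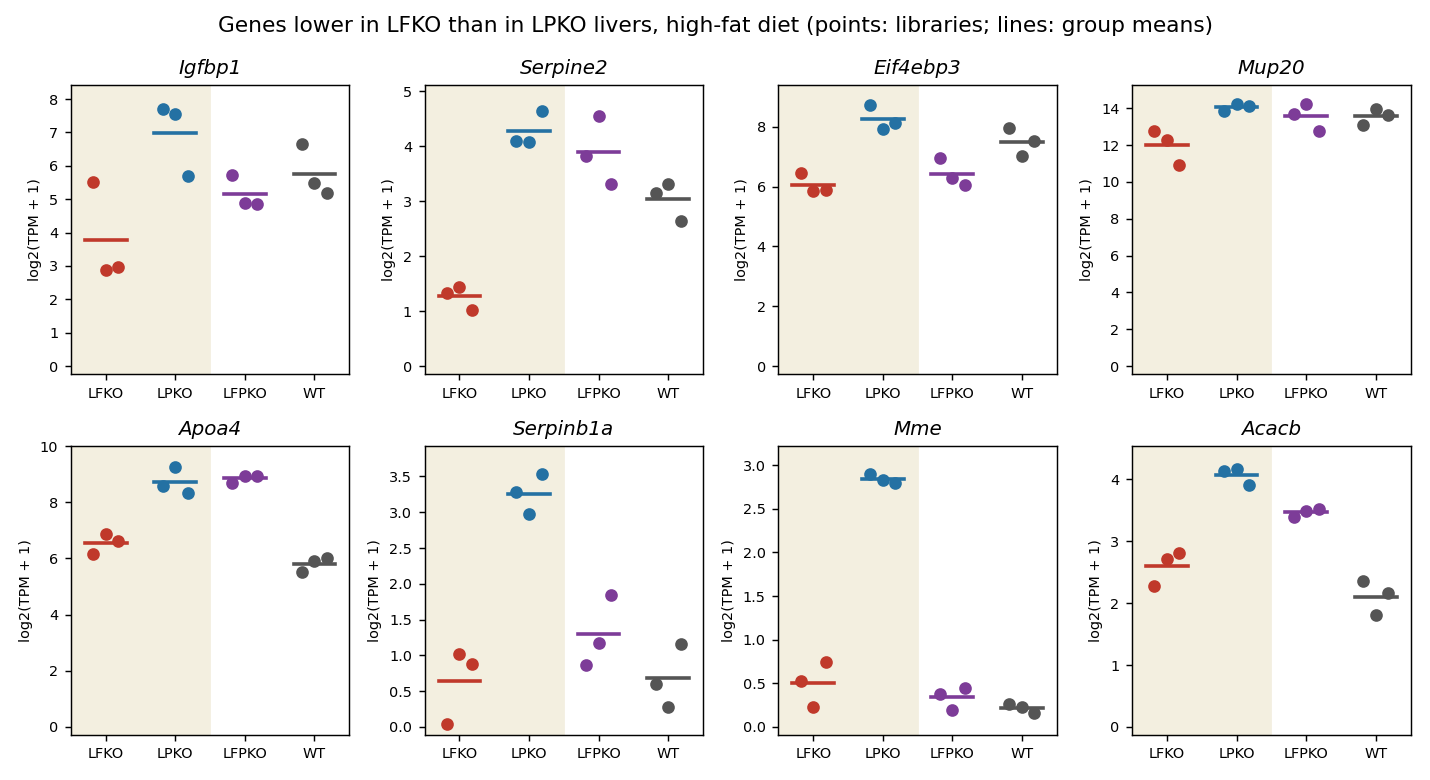
Expression as log2(TPM + 1) of 8 genes lower in LFKO than in LPKO livers on the high-fat diet, drawn as in the plot of higher genes. Serpine2, Eif4ebp3 and Mup20 are lower in LFKO than in WT livers. Serpine2, Apoa4, Serpinb1a, Mme and Acacb are higher in LPKO than in WT livers.

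Plasma and complement proteins were part of the lower side. Apoa4 (chr9:46240696-46243459, plus strand), an apolipoprotein of triglyceride-rich particles, had 70.9, 116 and 96.8 TPM in LFKO livers, against 384, 612 and 324 TPM in LPKO livers. LPKO replicate 3, the lowest of its group, was still well above the highest LFKO library (-2.18 ± 0.32, adjusted p = 1.52e-04). LFPKO livers had 412, 486 and 485 TPM and WT livers 45.3, 58.6 and 63.3 TPM. Of 24 tested acute phase proteins 3 were called lower and 0 higher, Orm3 (-2.17 ± 0.18), Orm1 (-1.11 ± 0.18) and the heme carrier Hpx (-0.57 ± 0.16), with a median of -0.25. Over all tested genes 1.27% were called lower. The Hpx call was not kept without the filter, with the 6 libraries alone or without LFKO replicate 1, LFKO replicate 2, LFKO replicate 3, LPKO replicate 1, LPKO replicate 2 or LPKO replicate 3 (adjusted p up to 0.119). The complement component C6 had a log2 fold change of -1.72, and Susd4, a complement inhibitor, one of -1.7. C6 was not called with the 6 libraries alone or without LFKO replicate 3 (adjusted p up to 0.123). In the interferon response, beside the same 1.27%, 3 of 31 tested genes were called lower and 0 higher, Ifi27 (-1.0 ± 0.18), Usp18 (-0.96 ± 0.22) and Irf7 (-0.75 ± 0.2), with a median of -0.24. Only 1 was called lower without LFKO replicate 3 or LPKO replicate 3, and without LFKO replicate 1 the median was -0.085. Irf7 was not called without the filter, with the 6 libraries alone or without LFKO replicate 1, LFKO replicate 2, LFKO replicate 3, LPKO replicate 2 or LPKO replicate 3 (adjusted p up to 0.122), and Usp18 was not called without LFKO replicate 3 or LPKO replicate 3 (adjusted p up to 0.0639).

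Some sterol genes were lower in LFKO than in LPKO livers. Of 24 tested genes of cholesterol synthesis and uptake 7 were called lower and 0 higher, where 1.27% of all tested genes were called lower. The list median was -0.70, and after rescaling 13 members were called lower. Only 2 were called lower without the filter, or without LFKO replicate 2, LFKO replicate 3, LPKO replicate 1 or LPKO replicate 2, and the median without LPKO replicate 2 was -0.44. Cyp51, the lanosterol demethylase, had 39.4, 38.7 and 37.9 TPM in LFKO livers, against 79.9, 85.6 and 59.8 TPM in LPKO livers. LFKO values were nearly equal to each other and below every LPKO value (-0.92 ± 0.18, adjusted p = 0.00337). Fdps, which makes farnesyl diphosphate, averaged 98.5 ± 9.09 TPM in LFKO livers and 230.2 ± 81.8 TPM in LPKO livers (SD, n = 3 each). Its fold change was -1.16 ± 0.25. The squalene epoxidase Sqle had a log2 fold change of -1.0. Fdps was not called without LPKO replicate 2 (adjusted p = 0.0568), and Sqle was not called without the filter, with the 6 libraries alone or without LFKO replicate 2, LFKO replicate 3, LPKO replicate 1 or LPKO replicate 2 (adjusted p up to 0.132). The abundant member Sc5d (-0.1 ± 0.2) was not called.

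In fatty acid synthesis 2 genes were called, both lower in LFKO livers. Acacb, the acetyl-CoA carboxylase at mitochondria whose product blocks Cpt1a, had 3.84, 5.54 and 6.02 TPM in LFKO livers, against 16.6, 17.01 and 13.96 TPM in LPKO livers. The groups were well apart (-1.47 ± 0.22, adjusted p = 1.41e-04). Acss2, which makes acetyl-CoA from acetate, had a log2 fold change of -1.3 ± 0.28 and was not called with the 6 libraries alone (adjusted p = 0.103). These were the 2 of 24 tested members that were called, where 4.59% of all tested genes were called, and the list median was -0.08. Without LFKO replicate 1 or LPKO replicate 2, 4 were called. Srebf1, the lipogenic transcription factor, had 46.4, 114 and 114 TPM in LFKO livers and 35.6, 47.4 and 34.7 TPM in LPKO livers and was not called (1.1 ± 0.33, adjusted p = 0.0656); it was called after rescaling, without Mup and mitochondrial transcripts and without LFKO replicate 1. In bile acid genes Cyp8b1 had 26.9, 33.9 and 39.2 TPM in LFKO livers, against 118, 271 and 67.6 TPM in LPKO livers. All LFKO libraries were lower (-1.94 ± 0.36, adjusted p = 0.00168), as was Slco1a4, an organic anion carrier (-1.44 ± 0.36), whereas Acox2 and Hsd3b7, which shape the bile acid side chain and ring, were higher by 0.67 ± 0.16 and 0.62 ± 0.16. Of 21 tested bile acid genes these were the 2 called each way. In all 7 were called without LFKO replicate 1, 2 without LFKO replicate 3 or LPKO replicate 3 and 1 without LFKO replicate 2 or LPKO replicate 1. Slco1a4 was not called without the filter, with the 6 libraries alone or without LFKO replicate 2 or LPKO replicate 1 (adjusted p up to 0.135), Acox2 was not called with the 6 libraries alone or without LFKO replicate 2, LFKO replicate 3, LPKO replicate 1 or LPKO replicate 3 (adjusted p up to 0.261), and Hsd3b7 was not called without the filter, with the 6 libraries alone or without LFKO replicate 2, LFKO replicate 3, LPKO replicate 1 or LPKO replicate 3 (adjusted p up to 0.239).

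Some genes that differ between female and male mouse liver differed between the knockouts. Of 26 female-biased genes 15 passed the filter, whose mean includes the LFKO libraries, so genes high only there could enter. Cyp2b9 averaged 83.9 and 70.6 TPM in RD and HFD LFKO livers, and 1.9 TPM in RD WT livers, the highest other group. Of the 15 tested genes 4 were called higher and 0 lower, with a median of 0.78, and both may lean toward LFKO livers for that reason. Without LFKO replicate 1, 7 were called higher, and without LFKO replicate 3 the median was 0.33. Cyp2b9 (chr7:26173411-26210661, plus strand), a P450 of female liver, had 8.69, 50.7 and 153 TPM in LFKO livers, against 1.33, 0.0786 and 0.0208 TPM in LPKO livers. LFKO replicate 1 was many times lower than LFKO replicates 2 and 3 but above all LPKO libraries (4.96 ± 0.68, adjusted p = 6.55e-05). The prolactin receptor Prlr averaged 89.97 ± 32.2 TPM in LFKO livers and 22.1 ± 3.48 TPM in LPKO livers (SD, n = 3 each) and was higher by 1.92 ± 0.29. Abcd2, above, and Rtn4 (2.21 ± 0.31) were the other 2. Of all tested genes 3.32% were called higher and 1.27% lower. Of 25 tested male-biased genes 0 were called higher and 4 lower, with a median of -0.49. Without LFKO replicate 1, 8 were called lower, and without LFKO replicate 3 the median was -0.25. Mup20, a pheromone carried in male urine, had 6976, 5016 and 1945 TPM in LFKO livers, against 14706, 18971 and 17638 TPM in LPKO livers. Mup21, C6 and Susd4 were the others, Mup21 with 635, 308 and 116 TPM in LFKO livers and 2403, 1157 and 1059 TPM in LPKO livers. Fold changes were -2.06 ± 0.39 for Mup20 and -2.34 ± 0.44 for Mup21, which was not called with the 6 libraries alone (adjusted p = 0.0675). Mup genes are near-identical copies, so their division of reads is uncertain. LFKO replicate 1 carried the highest Mup share of its group and the lowest levels of Cyp4a14, Cyp2b9 and Abcd2, and the part of Mup share in these results was not tested.

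Several programmes showed no called gene in either direction. These were immediate early genes (13 tested), clock genes (17), amino acid breakdown and the urea cycle (32), nuclear respiratory chain subunits (30) and mitochondrial genome transcripts (13). Only 4.59% of all tested genes were called, so few calls would fall in lists of this size at that share. The respiratory chain median was 0.13 and that of mitochondrial transcripts 0.05, close to the 0.10 of all tested genes, while mitochondrial oxidation genes had 1.0. Mitochondrial transcripts took between 21.9% and 23.4% of the TPM in LFKO livers and between 19.9% and 22.5% in LPKO livers.

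The remaining lists held few called genes each, where 4.59% of all tested genes were called. The shares of the P450, growth hormone, apolipoprotein and cell cycle lists were above that but rest on few genes. In 27 tested Cyp2 and Cyp3 P450 genes 2 were called higher, Cyp2c38 (2.33 ± 0.53) and the epoxygenase Cyp2j5 (0.45 ± 0.12), and 1 lower, Cyp2f2 (-0.56 ± 0.13), with a median of 0.01. Of 38 tested conjugation genes 2 were called higher, the glutathione transferases Gstt2 (1.69 ± 0.3) and Gstm4 (0.76 ± 0.21), with a median of 0.05. The growth hormone and STAT5 list had 2 of 19 called higher, Prlr and the growth factor Igf1 (0.45 ± 0.11), and 1 lower, Igfbp1, with a median of 0.14. Of 21 tested genes of apolipoproteins and lipoprotein assembly 2 were called higher, Abcg5 and Abcg8, and 1 lower, Apoa4, with a median of 0.08. The stress response list had 1 of 21 called higher, Fgf21, with a median of 0.14, and the nuclear receptor list 1 of 24 called lower, Ppara, with a median of 0.02. In cell cycle genes 1 of 12 was called higher, the cyclin Ccnd3 (0.66 ± 0.15), with a median of 0.28. Gstt2 was called under all 14 alternatives. Cyp2c38, Cyp2j5, Gstm4, Igf1 and Ccnd3 were not called with the 6 libraries alone or without LFKO replicate 2, LFKO replicate 3 or LPKO replicate 3 (adjusted p up to 0.357), Gstm4 also not without the filter, Gstm4 and Ccnd3 also not without LPKO replicate 1 and Cyp2j5 also not without LPKO replicate 2. Cyp2f2 was not called with the 6 libraries alone (adjusted p = 0.17).

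Marker genes of the liver's cell types were mostly not called, as were the tested genes as a whole (4.59% called). In bulk RNA, fewer cells of a type and less RNA per cell cannot be told apart. Of 15 tested hepatocyte markers 1 was called, Alb, with 54028 ± 11409.6 TPM in LFKO livers and 28614 ± 7537 TPM in LPKO livers (SD, n = 3 each; 0.93 ± 0.2), and the list median was -0.03. Alb was not called without the filter, with the 6 libraries alone or without LFKO replicate 3 (adjusted p up to 0.147). Of 17 Kupffer cell and macrophage markers 1 was called, the iron exporter Slc40a1 (0.85 ± 0.22), which was not called without the filter, with the 6 libraries alone or without LFKO replicate 2, LFKO replicate 3, LPKO replicate 1 or LPKO replicate 2 (adjusted p up to 0.19). The summed TPM of that list ranged from 214 to 290.0 in LFKO and from 137 to 340.3 in LPKO livers. Endothelial (15 tested), stellate (14), cholangiocyte (4), lymphocyte (2), neutrophil (2), erythroid (5) and pancreas (1) markers had 0 calls. The 1 tested fat marker, Adrb3, was called lower at 1.4, 2.16 and 3.11 TPM in LFKO livers and 9.16, 5.24 and 6.64 TPM in LPKO livers, and was not called without the filter or without LFKO replicate 1, LFKO replicate 2, LPKO replicate 1 or LPKO replicate 3 (adjusted p up to 0.102). The summed fat markers were between 1.86 and 4.01 TPM in LFKO livers and between 5.77 and 9.18 TPM in LPKO livers. That sum was mostly Adrb3 itself, on average 2.22 of 2.84 TPM in LFKO and 7.01 of 7.24 TPM in LPKO livers.

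Set against WT livers on the same diet, the higher genes were sorted into types by the knockout in which they were called. The direct difference equals that of LFKO from WT less that of LPKO from WT. A gene picked by it must therefore part from WT in LFKO livers, LPKO livers or both, and the types only describe where. Both comparisons share the WT libraries and each shares a knockout with the direct comparison, so values are given side by side. In LFKO against WT 1420 genes were called (13.5%), 1343 of them higher, but after rescaling, which moved the median by 0.22, 235 were higher and 197 lower. In LPKO against WT 499 genes were called (4.73%), and after rescaling, which moved the median by 0.11, 373 were higher and 347 lower. The counts moved with single libraries. For LFKO against WT 199 genes were called without WT replicate 2, 3501 without LFKO replicate 1, 310 without LFKO replicate 2 and 238 without LFKO replicate 3. For LPKO against WT 198 were called without WT replicate 2, 238 without LPKO replicate 1, 264 without LPKO replicate 2 and 889 without LPKO replicate 3. Genes named below as called against WT were also called after rescaling unless stated.

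A first type was higher in LFKO than in WT livers and was not called in LPKO livers. Cyp4a14 differed from WT by 4.81 ± 0.7 in LFKO and -0.92 ± 0.7 in LPKO livers, Cyp2b9 by 4.62 ± 0.68 in LFKO and -0.33 ± 0.68 in LPKO livers. Abcd2 differed by 2.48 ± 0.38 in LFKO livers and had the same mean as WT in LPKO livers to 2 decimals, with an SE of 0.38. Prlr differed by 1.67 ± 0.29 in LFKO and -0.25 ± 0.29 in LPKO livers, and Cd36 by 2.55 ± 0.41 in LFKO and 0.95 ± 0.41 in LPKO livers. The transcription factor Tcf24 was at 2.81, 3.72 and 5.06 TPM in LFKO livers, against 0.363, 0.109 and 0.072 TPM in LPKO, 0.0311, 0.117 and 0.342 TPM in LFPKO and 0.227, 0.0292 and 0.087 TPM in WT livers. Its LFKO libraries were the only high-fat libraries above 1 TPM. Hacl1, a peroxisomal lyase of branched fatty acids picked after its values were seen, differed by 1.45 ± 0.19 in LFKO and 0.12 ± 0.19 in LPKO livers.

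A second type was lower in LPKO than in WT livers. Cyp4a32 differed from WT by 0.03 ± 0.24 in LFKO and -2.65 ± 0.24 in LPKO livers, and Eci2 by 0.29 ± 0.17 in LFKO and -1.61 ± 0.17 in LPKO livers. Neither was called in LFKO livers. Decr2 (-1.88 ± 0.15 in LPKO livers) and Slc25a20 (-1.63 ± 0.17) were also called higher in LFKO livers, at 0.49 ± 0.15 and 0.56 ± 0.17, but not after rescaling. Serinc2, Raet1d and Cyp4a31 departed from WT on both sides. Serinc2, a serine incorporator, differed by 0.89 ± 0.17 in LFKO and -1.79 ± 0.17 in LPKO livers, and Raet1d, a ligand of the NKG2D receptor, by 1.8 ± 0.35 in LFKO and -1.35 ± 0.35 in LPKO livers. Vnn1 differed by 1.35 ± 0.33 in LFKO livers, not called after rescaling, and by -3.38 ± 0.33 in LPKO livers.

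The lower genes were sorted in the same way, with the directions mirrored. Serpina12 differed from WT by -1.65 ± 0.33 in LFKO and 0.3 ± 0.33 in LPKO livers, Susd4 by -1.54 ± 0.22 in LFKO and 0.16 ± 0.22 in LPKO livers, and Eif4ebp3 by -1.44 ± 0.32 in LFKO and 0.76 ± 0.32 in LPKO livers. These were called in LFKO and not in LPKO livers. Mme differed by 0.28 ± 0.28 in LFKO and 2.63 ± 0.28 in LPKO livers, Serpinb1a by -0.03 ± 0.35 in LFKO and 2.58 ± 0.35 in LPKO livers, and Apoa4 by 0.74 ± 0.32 in LFKO and 2.92 ± 0.32 in LPKO livers. These were called in LPKO and not in LFKO livers. Serpine2 and Orm3 were lower than WT in LFKO livers (-1.77 ± 0.25 and -1.16 ± 0.18) and higher in LPKO livers (1.24 ± 0.25 and 1.01 ± 0.18).

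The double knockout livers were near WT for Mme but not for Blnk. Mme had 0.298, 0.147 and 0.366 TPM in LFPKO livers, near WT livers (0.196, 0.173 and 0.119 TPM), whereas Blnk had 3.62, 8.81 and 8.87 TPM in LFPKO livers, nearer to LPKO livers (5.14, 5.16 and 7.59 TPM) than to WT livers (1.12, 0.405 and 0.584 TPM). Sterol genes were higher than WT in both single knockouts. Of the 24 tested members 21 were called higher in LFKO livers, with a median of 1.09, and 21 in LPKO livers, with a median of 1.75. Sqle differed from WT by 2.15 ± 0.26 in LFKO and 3.15 ± 0.26 in LPKO livers, and Fdps by 1.76 ± 0.25 in LFKO and 2.92 ± 0.25 in LPKO livers.

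**Figure D4:**
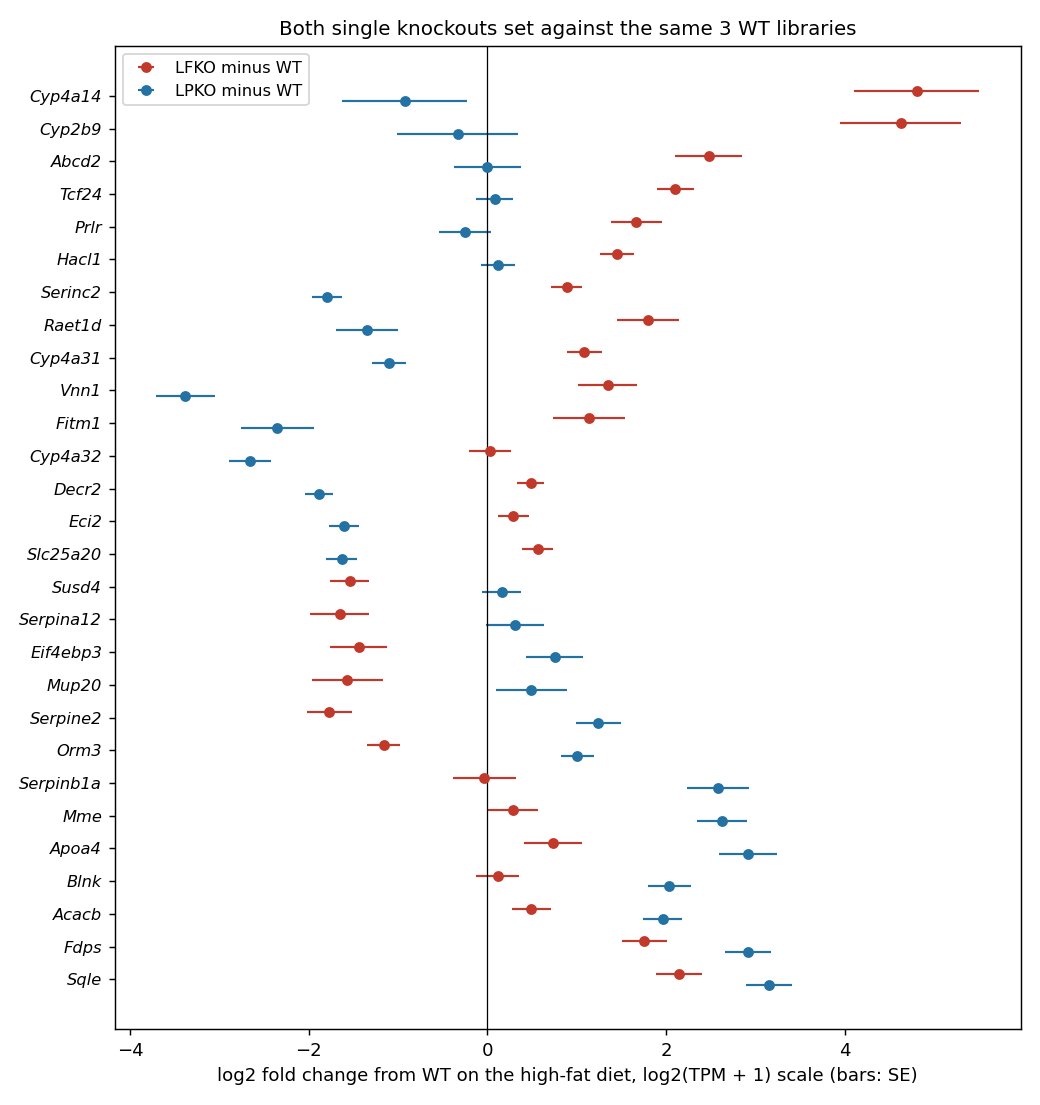
Log2 fold change from WT ± SE on the high-fat diet of 28 genes, for LFKO (red) and LPKO (blue) livers, both set against the same 3 WT libraries. Cyp4a14, Cyp2b9 and Abcd2 lie apart from WT in LFKO livers, Cyp4a32 and Eci2 in LPKO livers, and Fdps and Sqle lie above WT in both.

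The same contrast on the regular diet used other libraries for its group means. It shared the filter and the estimate of the spread with the high-fat contrast, so calls on both diets are not fully independent. On the regular diet 658 genes were called (6.24%). LFKO livers were higher for 328 (3.11%) and lower for 330 of them (3.13%). Of the 350 genes higher on the high-fat diet 343 (98%) had the same sign on the regular diet, and 209 were called the same way, which is 59.7% of the high-fat and 63.7% of the regular diet genes. Of the 134 lower genes 132 (98.5%) had the same sign and 84 were called the same way, 62.7% of the high-fat and 25.5% of the regular diet genes. None was called the opposite way, and 64.4% of all tested genes had the same sign on both diets. The regular diet count was 1056 after rescaling, with 536 higher and 520 lower. It was 410, 391 and 436 without RD LFKO replicates 1, 2 and 3, 427 without RD LPKO replicate 1 and 418 without RD LPKO replicate 3. The median regular diet fold change was 0.70 for the higher and -0.77 for the lower genes.

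Leading genes were also higher on the regular diet. Vnn1 had 71.9, 69.6 and 61.1 TPM in RD LFKO livers, against 2.28, 1.26 and 2.73 TPM in RD LPKO livers (4.5 ± 0.33), and Cyp4a14 had 756, 783 and 608 TPM in RD LFKO livers, against 16.9, 8.81 and 38.6 TPM in RD LPKO livers (5.22 ± 0.7). The RD LFKO libraries were close together, without a low replicate 1. RD WT livers had 808, 288 and 482 TPM of Cyp4a14, a range that held all RD LFKO libraries and lay above all RD LPKO libraries. On the high-fat diet all LFKO libraries lay above all WT libraries for this gene, so its place beside WT was not the same on both diets. The regular diet knockouts were not tested against WT. Mitochondrial oxidation had 16 of 20 members called higher and 0 lower (median 1.09), and peroxisomal oxidation 15 of 21 and 0 (median 1.01). Male-biased genes had 10 of 25 called lower and female-biased genes 7 of 15 called higher. Sterol genes had 0 of 24 called on the regular diet, with a median of -0.36, and no member was called for the difference between diets. Igfbp1, with 45.2, 41.04 and 70.5 TPM in RD LFKO and 149, 59.97 and 252 TPM in RD LPKO livers, was not called (-1.35 ± 0.62, adjusted p = 0.235). Slc16a5, a monocarboxylate carrier, was called on the high-fat diet (2.24 ± 0.5), though not with the 6 libraries alone or without LFKO replicate 2, LFKO replicate 3 or LPKO replicate 3 (adjusted p up to 0.0909), and not on the regular diet (0.94 ± 0.5).

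**Figure D5:**
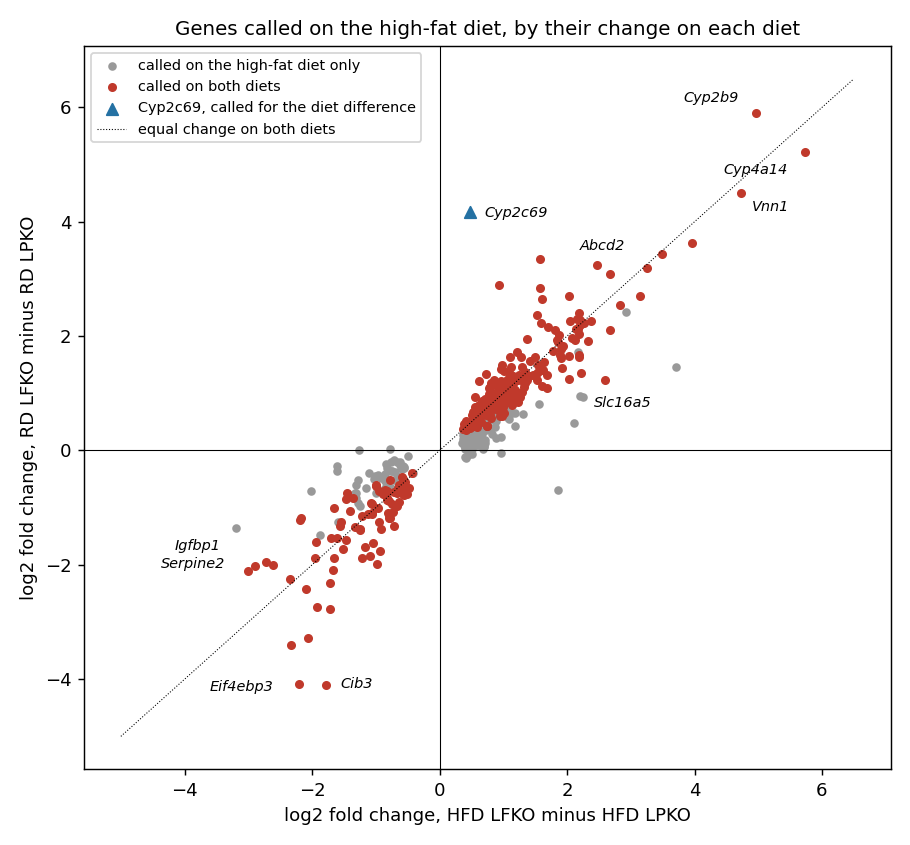
Log2 fold change, LFKO minus LPKO, of the 484 genes called on the high-fat diet, on that diet (horizontal axis) and on the regular diet (vertical axis), with Cyp2c69 added as a triangle. The dotted line marks equal change, red points are called on both diets, and nearly all points lie in the lower left and upper right corners.

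The difference between diets was itself tested. It was called for 1 of the 10551 genes (0.00948%), and 604 genes had an unadjusted p under 0.05. The called gene was Cyp2c69 (chr19:39842814-39886799, minus strand), a P450. It had 0.533, 0.183 and 0.855 TPM in HFD LFKO livers, against 0.119, 0 and 0.102 TPM in HFD LPKO livers, and 53.1, 15.99 and 40.6 TPM in RD LFKO livers, against 0.232, 1.46 and 1.15 TPM in RD LPKO livers. Only RD LFKO libraries were above 2 TPM among these groups. The filter mean included them, so the gene could be tested because of the group that makes the difference. The fold change on the high-fat diet minus that on the regular diet was -3.69 ± 0.51 (adjusted p = 0.00575). With 1 library left out between 1 and 4 genes were called, with 2 without RD LFKO replicate 1, HFD LFKO replicate 2, HFD LPKO replicate 1 or HFD LPKO replicate 3 and 4 without HFD LFKO replicate 3. The Cyp2c69 call was absent with a pseudocount of 0.1 and without Mup and mitochondrial transcripts. Cyp2c40 had 2.56, 0.941 and 2.52 TPM in HFD LFKO, 0.847, 0.20 and 0.595 TPM in HFD LPKO, 150.2, 54.7 and 141 TPM in RD LFKO and 1.03, 5.91 and 6.12 TPM in RD LPKO livers, and its difference between diets was not called (-3.59 ± 0.86, adjusted p = 0.419). Cyp2c genes are close copies, so reads may have been divided between them. For Eif4ebp3 the difference between diets was 1.88 ± 0.45 and for Igfbp1 -1.84 ± 0.87, neither called.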

How the data were processed

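The liver libraries were TruSeq stranded mRNA libraries of Trizol RNA, per the labels' protocols. The authors deposited gene-level TPM values. Per the submitters' processing notes, kallisto was used with GRCm38 (mm10), without a version, and no source used here names the annotation. Of 34945 named genes 13131 were at 0 in every library. A line with no gene name took at most 0.025% of a library's TPM and was not used. TPM holds no counts, so no count model was used.

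Values were taken as log2(TPM + 1) without further normalisation, and the 10551 genes with a mean of at least 1 TPM over all 24 libraries were tested with limma 3.58.1 in R 4.3.3, in 1 fit of 8 group means with 16 residual degrees of freedom and a variance trend. Benjamini-Hochberg adjustment was made within each of 5 comparisons, with two-sided tests. For 3 against 3 libraries the smallest p of an exact permutation is 0.1, and none was run. The fit was tested on simulated data. The members and the 39 gene lists were chosen with earlier results of these data known, and no list was tested as a set.

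Named genes are Foxo1 and Ppara, the 20 highest and 20 lowest called genes of each diet with groups that do not overlap and a mean of at least 5 TPM in the higher group, called diet differences and, for a list, up to 5 members by p, called members against its direction and 3 by level. Some genes that this rule names are not reported here. Cpt1a, Hacl1, G6pc and Irs2 were added after their values were seen. Gene positions come from GENCODE M21 and promoters from RefSeq, whose tables may differ from the authors' annotation. Alternatives are given at the end.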

Additional observations from a re-analysis of the deposited data

Results flagged for a closer look

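Cyp2c69 stood out because its LFKO minus LPKO fold change differed between diets in a test of that difference. The log2 fold change was 0.48 on the high-fat diet and 4.17 on the regular diet, a difference of -3.69 ± 0.51 (limma adjusted p = 0.00575). Mean levels were 0.524 ± 0.336 TPM in HFD LFKO livers and 0.0739 ± 0.0646 TPM in HFD LPKO livers, and 36.6 ± 18.9 TPM in RD LFKO livers and 0.948 ± 0.639 TPM in RD LPKO livers (SD, n = 3 each). The next highest group was RD WT at 1.99 TPM, so the gene could pass the filter through the RD LFKO libraries that make the difference. The call was absent with a pseudocount of 0.1 and without Mup and mitochondrial transcripts.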

How the results depend on the processing

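Of the called genes named in the text, 84 in all, 50 were called under every alternative in which they were tested and 0 reversed (14 alternatives, or 13 where a filter or the removal of Mup genes left the gene out). The LFKO against LPKO count on the high-fat diet (484) was 482 with a pseudocount of 0.1, 430 without the filter, 373 at a mean of at least 5 TPM, 464 without the variance trend, 664 without Mup and mitochondrial transcripts (357 higher, 307 lower), 694 after rescaling (359 higher, 335 lower) and 202 with the compared groups alone, and it ranged from 273 to 1244 with 1 library left out. The cause of these differences was not tested. On the regular diet (658) it was 1056 after rescaling (536 higher, 520 lower), 1370 with the compared groups alone and 1326 without Mup and mitochondrial transcripts (388 higher, 938 lower), and ranged from 391 to 458 with 1 library left out. The diet difference (1) gave 0 with a pseudocount of 0.1, 3 without the filter, 5 with the compared groups alone, 0 without Mup and mitochondrial transcripts, and 1 to 4 with 1 library left out. LFKO against WT (1420) gave 432 after rescaling, 140 with the compared groups alone, 438 without Mup and mitochondrial transcripts, and 199 to 3501 with 1 library left out. It was 199 without WT replicate 2 and 3501 without LFKO replicate 1. LPKO against WT (499) gave 147 with the compared groups alone, 680 without Mup and mitochondrial transcripts (291 higher, 389 lower), and 198 to 889 with 1 library left out, 198 without WT replicate 2 and 889 without LPKO replicate 3.

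With the replicate number as a block, 424 genes were called for LFKO against LPKO on the high-fat diet, 629 on the regular diet, 1 for the diet difference, 1038 for LFKO against WT and 447 for LPKO against WT. Deviations of same-numbered high-fat LFKO and LPKO libraries correlated at 0.063, 0.014 and -0.014 across genes, so the numbers were not taken as pairs. Among the named genes, Ppara, Cyp4f14, Hpx, Fgf21 and Cyp2j5 were not called and Plin2 was called with the block. With 1 library left out, 2 uncalled genes took either sign: Sc5d ranged from -0.25 to 0.087 and G6pc from -0.79 to 0.086. Sequencing depth is not known from TPM, and 3 libraries per group limit what small or variable differences can be called.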
